A study of Rattus norvegicus with 8 samples.

Results

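The subunits of the oxidative phosphorylation machinery were followed through the rat femur growth plate, the cartilage layer in which long bones lengthen. They were taken from an array annotation by symbol: Nduf genes other than the Ndufaf assembly factors, Uqcr genes, Atp5 genes other than Atp5s, symbols beginning with Cox4 to Cox8, and Sdha, Sdhb, Sdhc, Sdhd and Cyc1. The rule found 81 genes of 14217 with a probe set of their own, and where a gene had several probe sets the one with the highest mean was used. Expression was measured with 8 Affymetrix arrays of Rattus norvegicus, 1 from rats of 42 days and 1 from rats of 46 days for each of 4 zones: perichondral, reserve, proliferative and hypertrophic. Each array received RNA pooled from 3 untreated rats, and neither their strain, sex and genotype nor the way the zones were separated is stated in the labels. The series text counts the ages as replicates, so n = 2 arrays per zone, and the error behind the zone p-values includes the age difference between the pools. Age itself was tested in a separate fit with zone as covariate.

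Oxidative phosphorylation passes electrons from NADH and succinate through complexes I to IV of the inner mitochondrial membrane to oxygen, and complex V, the ATP synthase, uses the resulting proton gradient to make ATP. Most subunits are encoded in the nucleus, and those made in the mitochondrion itself are outside the symbols followed here. Growth plate cartilage has no blood vessels of its own, and its chondrocytes are known for relying largely on glycolysis. Several complex IV subunits exist as isoforms for particular tissues, such as muscle, lung or testis.

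No subunit passed the threshold between any zones or between the ages. Values are log2(intensity + 16) after quantile normalization, and limma's p-values were adjusted across all 31042 probe sets (Benjamini-Hochberg), with 0.05 as the threshold. The members called were 0 of 81 in each of the 6 zone comparisons, 0 in the test of any difference among zones, and 0 between 46 and 42 days. Over all probe sets the share called was itself small, at 0% for perichondral against reserve and for perichondral against proliferative, and 0.029% for perichondral against hypertrophic. It was 0.0226% for reserve against proliferative and again for reserve against hypertrophic, 0.0129% for proliferative against hypertrophic, 0.0387% for any zone and 0% for age. The lowest adjusted p among members was 0.424 between zones and 0.326 between ages.

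At an unadjusted p under 0.05 the members also stayed near the background. For perichondral against reserve there were 2 of 81 members (2.47%, all probe sets 3.75%). For perichondral against proliferative there were 2 (2.47%, all probe sets 5%), and for perichondral against hypertrophic 2 (2.47%, all probe sets 6.17%). For reserve against proliferative there were 5 (6.17%, all probe sets 7.64%), for reserve against hypertrophic 6 (7.41%, all probe sets 8.1%), and for proliferative against hypertrophic 3 (3.7%, all probe sets 5.52%). The test of any zone gave 2 (2.47%, all probe sets 6.2%) and age 8 (9.88%, all probe sets 8.43%). The members' shares were thus close to, or below, those of the array as a whole. Precision was limited by the number of arrays. The standard error of a zone difference ran from 0.53 to 1.33 across members with a median of 0.81, so a member could differ severalfold and still miss the threshold.

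Col2a1, the main cartilage collagen, was between 15.86 and 17.80 on all 8 arrays. Col1a1 is the main collagen of bone and fibrous tissue. At 42 and 46 days it was at 15.80 and 15.66 in reserve and 15.41 and 13.03 in perichondral arrays. In hypertrophic arrays it was at 16.09 and 11.33, and in proliferative arrays at 10.12 and 9.24. The trimmed mean of the deposited intensities lay between 500.08 and 500.16 on all arrays, and the median between 226.7 and 349. RNA quality, read from the ratio of the 3' and 5' control probe sets for Gapdh, was uneven between arrays. At 42 and 46 days the ratio was 8.15 and 3.96 in reserve and 7.1 and 5.39 in proliferative arrays. It was 4.47 and 3.78 in perichondral and 4.3 and 3.63 in hypertrophic arrays. As a rough yardstick of background, chosen after the data were seen, the 0.95 quantile of 35 genes typical of other organs was 9.53. Of the 81 members, 34 exceeded it in their mean, as did 19.1% of all genes. On all 8 arrays 20 members exceeded it, and 24 on none, which was not counted over all genes. These 20 were 9 of 34 complex I, 4 of 17 complex IV and 7 of 16 complex V genes, and no gene of complexes II and III was among them.

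**Figure D1:**
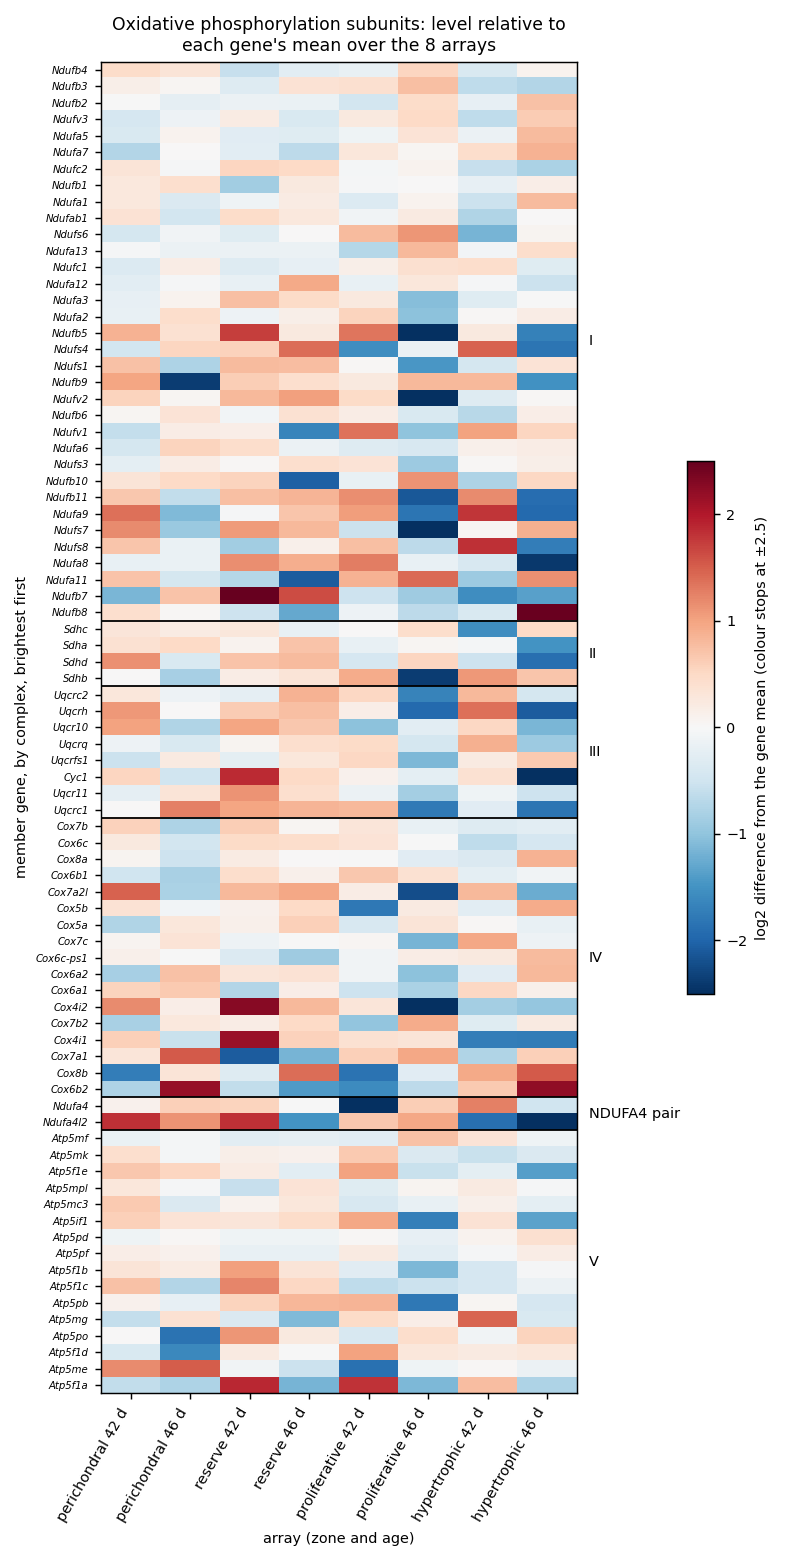
Level of each of the 81 members on each of the 8 arrays as a log2 difference from that gene's mean over the arrays, with genes in rows by complex and arrays in columns by zone and age. Many of the deepest blue cells lie in the 46-day proliferative and 46-day hypertrophic columns. The 2 brightest genes of complexes I, IV and V are pale across all arrays. Those of complexes II and III, and Ndufa4 at the top of its pair, have blue cells as well.

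The reserve arrays had the highest median over the 81 members. That median was 9.70 and 9.62 in reserve arrays at 42 and 46 days, and 9.44 and 9.29 in perichondral arrays. It was 9.35 and 8.83 in proliferative and 9.48 and 9.06 in hypertrophic arrays. Both reserve arrays therefore lay above the other 6, and the 46-day proliferative array was the lowest. Over all 14217 genes the medians of the same arrays ran only from 8.30 to 8.48, and the highest of these, too, was a reserve array.

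As differences between zones, the members' medians were small beside the spread of single genes. The median of the fitted log2 differences was 0.38 for reserve minus hypertrophic (all genes 0.07) and 0.33 for reserve minus proliferative (all genes 0.06). It was 0.24 for perichondral minus proliferative (all genes 0.02), 0.13 for perichondral minus hypertrophic (all genes 0.02), -0.19 for perichondral minus reserve (all genes -0.05) and -0.18 for proliferative minus hypertrophic (all genes 0). The members' quartiles were -0.32 and 0.91 in the first of these comparisons and those of all genes -0.68 and 0.89. The pooled SD of the members' array median within a zone was 0.24 (n = 2 arrays in each of 4 zones), close to the size of these medians. The comparisons with reserve leaned on 46-day arrays: without the 46-day proliferative array reserve minus proliferative was 0.05, and without the 46-day hypertrophic array reserve minus hypertrophic was 0.09. Without the 46-day proliferative array, proliferative minus hypertrophic was 0.24 and perichondral minus proliferative 0.01.

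**Figure D2:**
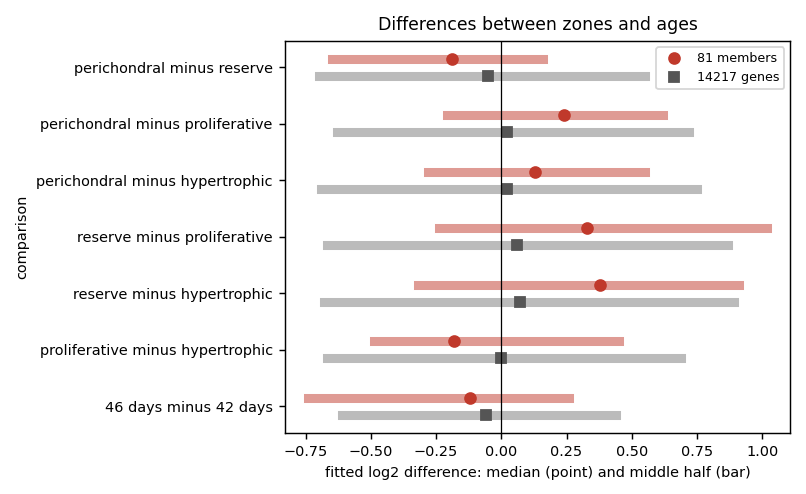
Fitted log2 differences for the 6 zone comparisons and for age, with the median as a point and the quartiles as the ends of a bar, for the 81 members in red and all 14217 genes in grey. Every bar crosses 0, and the members' median lies furthest from that of all genes in reserve minus hypertrophic, at 0.38 against 0.07.

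The zone in which members peaked was most often reserve and least often proliferative. The highest zone mean was in reserve for 36 of 81 members (44.4%, all genes 29%), in hypertrophic for 19, in perichondral for 16 and in proliferative for 10 (12.3%, all genes 24.4%). The lowest zone mean was in proliferative for 33 members (40.7%, all genes 25.9%). Both reserve arrays lay above both proliferative arrays for 25 members (30.9%, all probe sets 18%) and below them for 12 (14.8%, all probe sets 21.7%). Both reserve arrays lay above both hypertrophic arrays for 27 members (33.3%, all probe sets 17.7%) and below them for 13 (16%, all probe sets 21.3%). For 8 members both reserve arrays were the highest of all 8 arrays (all probe sets 4.24%): Cox6c, Ndufc2, Atp5f1b, Ndufa3, Ndufs1, Ndufv2, Uqcr11 and Ndufb7. For 2, Cox7a1 and Cox6c-ps1, both were the lowest (all probe sets 4.82%). Both hypertrophic arrays were the lowest for 8 members (all probe sets 3.93%), namely Atp5mk, Ndufb3, Ndufc2, Sdhd, Ndufa4l2, Cox4i1, Ndufa8 and Ndufb7, and the highest for 3 (all probe sets 4.67%), namely Atp5pd, Ndufa7 and Cox6c-ps1. Both proliferative arrays were the highest for 3 (all probe sets 4.41%), Ndufb3, Ndufs6 and Atp5f1d, and the lowest for 0 (all probe sets 3.53%). Both perichondral arrays were the highest for Ndufb1, Cox6a1 and Atp5me (3 members, all probe sets 2.7%) and the lowest for Cox6b1 and Atp5f1d (2 members, all probe sets 3.17%). Members share their arrays, so these counts are not independent of each other and were given no test.

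Against perichondral arrays the separation was weaker. Both perichondral arrays lay above both reserve arrays for 13 members (16%, all probe sets 18.6%) and below for 17 (21%, all probe sets 16.1%). They lay above both proliferative arrays for 8 (9.88%, all probe sets 16.3%) and below for 7 (8.64%, all probe sets 17.9%). They lay above both hypertrophic arrays for 19 (23.5%, all probe sets 16.7%) and below for 9 (11.1%, all probe sets 18.2%). Both proliferative arrays lay above both hypertrophic arrays for 13 members (16%, all probe sets 15.7%) and below for 9 (11.1%, all probe sets 15.8%). Most members thus overlapped between any pair of these zones.

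Like the members, markers of marrow, bone and vessel cells had a higher median in both reserve arrays than in either proliferative array. Against hypertrophic arrays this held for each list at 46 days only. At 42 days the leukocyte and marrow median was 9.77 in the hypertrophic and 9.54 in the reserve array. The osteoblast median was 10.48 and 9.78 there, while osteoclast, erythroid and endothelial medians were higher in the reserve array. Of 11 osteoclast markers 8 were measured, and all 8 had a higher mean in reserve than in proliferative arrays. Their summed deposited intensity was 24040 and 12730 in reserve, 1059 and 1976 in proliferative, 2772 and 1572 in perichondral and 8071 and 6420 in hypertrophic arrays, at 42 and 46 days. Of 16 leukocyte and marrow markers 13 were measured, with sums of 50750 and 43270 in reserve, 2220 and 2786 in proliferative, 4084 and 1197 in perichondral and 23730 and 2836 in hypertrophic arrays. Erythroid markers, 9 of 11 measured, had sums of 31540 and 50060 in reserve, 3168 and 4848 in proliferative, 10920 and 4419 in perichondral and 17740 and 3972 in hypertrophic arrays. Osteoblast markers, 7 of 11 measured, had sums of 103000 and 86410 in reserve, 3431 and 2916 in proliferative, 64110 and 21670 in perichondral and 172400 and 8590 in hypertrophic arrays, with a median of 3.30 for reserve minus proliferative and 6 of 7 higher. Endothelial markers, 9 of 10 measured, had a median of 1.15 there with 6 of 9 higher, and of 0.89 for reserve minus hypertrophic with 8 of 9 higher. Chondrocyte markers, 14 of 17 measured, were all higher in their mean in reserve than in hypertrophic arrays (median difference 1.34). Their sums were 694100 and 343400 against 429800 and 89680. Against hypertrophic arrays all 14 were also higher in perichondral arrays (median 1.1), and 13 in proliferative arrays (median 1.22). Reserve minus proliferative had a median of 0.17, with 9 higher and 5 lower. No marker was at 0 on any array, and the mean level exceeded the background yardstick for 0 osteoclast, 1 leukocyte, 3 erythroid, 3 osteoblast, 2 endothelial and 12 chondrocyte markers. Of 10 hypertrophic chondrocyte markers 9 were measured, and the list shares Ibsp and Runx2 with the osteoblast list. At 42 and 46 days the median of the 9 was 10.32 and 9.53 in hypertrophic and 9.58 and 9.81 in reserve arrays. Perichondral arrays had 9.15 and 9.05, and proliferative arrays 8.83 and 8.73. Sums were 266700 and 46480 in hypertrophic and 76550 and 52630 in reserve arrays, so both measures were higher in reserve at 46 days. In bulk RNA a change in cell makeup and a change of RNA per cell cannot be told apart. The part of these cells in the subunits' values was not tested.

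Complex III, which hands electrons from ubiquinol to cytochrome c, had the largest median of the 5 complexes for reserve minus proliferative, at 1.26 against 0.59 in complex II, 0.37 in IV, 0.21 in I and 0.01 in V. All 8 complex III genes had a higher mean in reserve than in proliferative arrays (median 1.26 on the log2 scale, against 52.3% of all genes higher), and all 8 had a lower mean in perichondral than in reserve arrays (median -0.39, and -0.43 in complex IV, against 47.5% of all genes higher). None passed the threshold, with a lowest adjusted p of 0.694 in the first comparison and of 1 in the second. The first count rested on the 46-day proliferative array, without which 5 of 8 were higher and the median was 0.32. Without the 42-day proliferative array that median was 1.52. In an unfitted comparison of single arrays, 5 of 8 were higher in reserve at 42 days (median 0.33) and 8 of 8 at 46 days (median 1.35). The second count fell from 8 to 6 of 8 genes lower when either perichondral array or the 46-day reserve array was left out. It did so too with the Gapdh ratio as a covariate. Uqcrfs1, Uqcr11 and Uqcrc1 exceeded the background yardstick on no array and Cyc1 on 1, so their differences rest on dim values.

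Single complex III genes showed where the low arrays lay. Uqcrh, the hinge protein beside cytochrome c1, was at 10.22 and 10.34 in reserve and 10.68 and 9.61 in perichondral arrays at 42 and 46 days. It was at 9.75 and 7.65 in proliferative and at 10.97 and 7.51 in hypertrophic arrays, so the 46-day arrays of both these zones were low while the 42-day hypertrophic array was the highest of all. Uqcrc2, a core protein, was at 10.58 and 8.4 in proliferative arrays and between 9.62 and 10.93 elsewhere, but its other probe set gave -0.85 for reserve minus proliferative where this one gave 0.90. Uqcrc1, the other core protein, was low in the same 2 arrays, at 6.15 in the 46-day proliferative and 6.09 in the 46-day hypertrophic array, against 7.64 to 9.18 in the others. Cyc1, the cytochrome c1 that passes electrons on, was at 9.96 and 8.59 in reserve arrays and reached its lowest value, 5.44, in the 46-day hypertrophic array. The arrays of different zones thus overlapped for these genes, and the moderated F test of any zone gave an adjusted p from 0.878 to 0.922 over the 4.

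**Figure D3:**
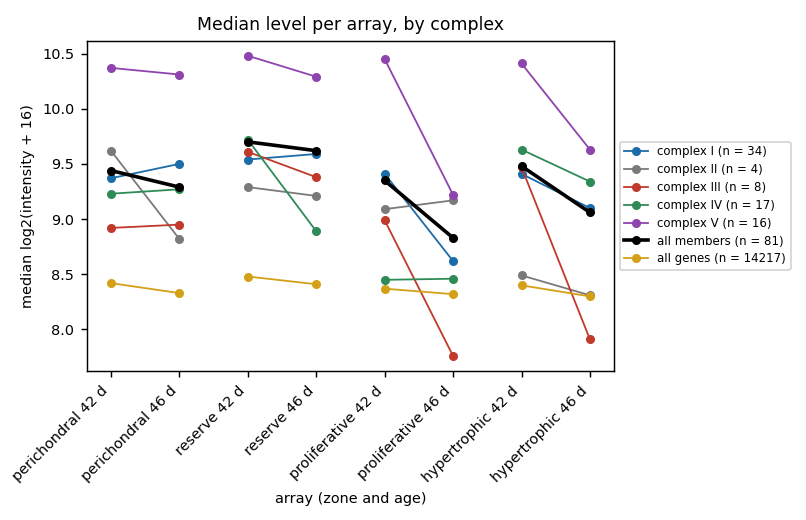
Median log2(intensity + 16) of each complex, of all members and of all genes on each array, with the 2 ages of a zone joined by a line. The complex III median is at 7.76 in the 46-day proliferative and 7.91 in the 46-day hypertrophic array and at 8.92 or above in the other 6, while the medians of all genes run from 8.30 to 8.48.

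Complex II, succinate dehydrogenase, links the citrate cycle to the chain, and 3 of its 4 genes had their lowest mean in hypertrophic arrays, Sdhb being lowest in proliferative arrays. Sdha, the flavoprotein, was at 9.90 and 10.02 in perichondral and at 9.48 and 8.03 in hypertrophic arrays, a difference of 1.20 (SE 0.68, adjusted p = 0.845 with limma) that became 0.48 or 1.92 when the 46-day or the 42-day hypertrophic array was left out. Sdhd, a membrane anchor, was at 8.96 and 9.03 in reserve, 9.38 and 7.85 in perichondral, 7.82 and 8.78 in proliferative and 7.72 and 6.36 in hypertrophic arrays. On this probe set both hypertrophic arrays thus lay below all others for Sdhd, with a difference of 1.57 from perichondral. That difference was 0.80 without the 42-day perichondral array and turned to -0.16 when the mean of the gene's 2 probe sets was used. The other Sdhd probe set, of similar mean (8.2 against 8.24), put hypertrophic highest. It gave -1.88 for perichondral, -0.9 for reserve and -1.32 for proliferative minus hypertrophic. Sdhb, the iron-sulfur subunit, had 8.98 and 8.58 in hypertrophic against 7.90 and 7.07 in perichondral arrays, and was at 5.52 in the 46-day proliferative array. Sdhc, the other anchor, had zone means from 9.04 to 9.82 that overlapped in their arrays.

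Complex I, the NADH dehydrogenase, supplied 34 members, and they did not move as a block. Its median difference was 0.27 for reserve minus hypertrophic, with 18 genes higher and 16 lower, and 0.21 for reserve minus proliferative, again with 18 higher and 16 lower. Its widest zone range belonged to Ndufb7, an accessory subunit of the membrane arm. Ndufb7 was at 9.70 and 8.17 in reserve arrays, 5.40 and 7.26 in perichondral, 6.02 and 5.65 in proliferative and 4.99 and 5.18 in hypertrophic arrays at 42 and 46 days. Both reserve arrays lay above all other 6, and both hypertrophic arrays below all others. The difference was 3.85 for reserve minus hypertrophic (SE 1.14, 95% interval 1.44 to 6.26, adjusted p = 0.424 with limma) and 3.10 for reserve minus proliferative (adjusted p = 0.568). Only the 42-day reserve array exceeded the background yardstick, so the size rests on dim values.

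Other complex I genes peaked elsewhere. Ndufs6, a zinc-binding accessory subunit, was at 10.70 and 11.01 in proliferative arrays and between 8.75 and 9.97 in the other 6, and it exceeded hypertrophic arrays by 1.5 (SE 0.63, adjusted p = 0.897 with limma), or by 0.89 with the 42-day hypertrophic array left out. Ndufb3, of the membrane arm, was at 12.09 and 12.43 in proliferative and at 11.05 and 10.95 in hypertrophic arrays (difference 1.26, SE 0.53, adjusted p = 0.897). For both genes the 2 proliferative arrays were the highest of the 8. Ndufa7 was highest in hypertrophic arrays, at 11.06 and 11.49 against 9.88 to 10.90 elsewhere, and its 2 probe sets had the same sign in 5 of the 6 zone comparisons. Ndufc2 was highest in reserve arrays, at 11.08 and 11.05, and lowest in hypertrophic arrays, at 9.98 and 9.76 (difference 1.20, SE 0.54, adjusted p = 0.601). Over the 20 members above the yardstick on all arrays, of any complex, the zone means ranged by 0.25 (Atp5mpl) to 1.42 (Atp5f1e). Ndufb4, a membrane arm subunit and one of them, ranged by 0.81 with both perichondral arrays (12.63 and 12.49) above both reserve arrays (11.60 and 11.91). Ndufs7, the core subunit next to the ubiquinone site, was at 8.86 and 8.62 in reserve and 7.27 and 5.28 in proliferative arrays (difference 2.46, SE 1.12, adjusted p = 0.639, and 1.47 without the 46-day proliferative array), and exceeded the yardstick on no array.

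Ndufa4l2 had the widest range of fitted zone means among members. Its paralogue Ndufa4 was named for complex I and is now counted with complex IV, and Ndufa4l2 is known as a gene induced by hypoxia-inducible factor. Ndufa4l2 was at 9.76 and 9.06 in perichondral, 9.76 and 6.45 in reserve, 8.61 and 8.91 in proliferative and 6.06 and 4.93 in hypertrophic arrays at 42 and 46 days. Both hypertrophic arrays lay below all other 6, while the reserve pair was split between a high and a low array. The perichondral minus hypertrophic difference was 3.91 (SE 1.14, 95% interval 1.5 to 6.33, adjusted p = 0.62 with limma). Proliferative minus hypertrophic was 3.26 (adjusted p = 0.894) and reserve minus hypertrophic 2.61 (adjusted p = 0.595), which was 0.96 when the 42-day reserve array was left out and 4.26 when the 46-day one was. Ndufa4l2 exceeded the background yardstick only in the 42-day perichondral and 42-day reserve arrays, so the size of these differences rests on dim values. Ndufa4 itself did not follow this order, with 9.86 and 8.10 in hypertrophic and 5.96 and 9.21 in proliferative arrays, and its arrays overlapped between zones.

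The complex IV isoform genes Cox4i1 and Cox4i2 both had their highest zone mean in reserve arrays. For each, though, the 46-day reserve array lay below the 42-day perichondral array (8.13 against 8.16, and 8.85 against 9.23). Cox4i1, the common form of the regulatory subunit 4, was at 9.72 and 8.13 in reserve, 8.16 and 7.0 in perichondral, 7.93 and 7.89 in proliferative and 5.83 and 5.81 in hypertrophic arrays. Both hypertrophic arrays again lay below all others, and reserve minus hypertrophic was 3.11 (SE 1.11, 95% interval 0.77 to 5.45, adjusted p = 0.519 with limma). Cox4i2, the form typical of lung and low oxygen, was at 10.33 and 8.85 in reserve, 9.23 and 8.21 in perichondral, 8.35 and 5.14 in proliferative and 7.19 and 7.08 in hypertrophic arrays. Reserve exceeded proliferative by 2.85 (SE 1.13, adjusted p = 0.61) and hypertrophic by 2.46 (adjusted p = 0.606). The first of these was 1.24 without the 46-day proliferative array and 4.45 without the 42-day one. Each gene exceeded the background yardstick only in the 42-day reserve array.

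**Figure D4:**
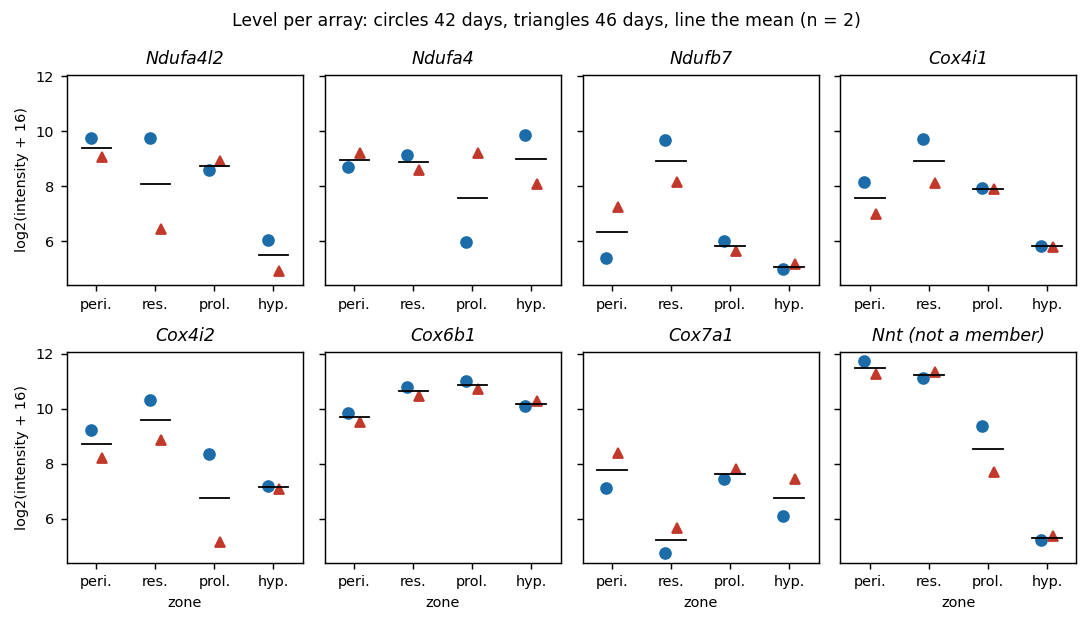
Level on each array of 7 members and of the transhydrogenase gene Nnt, by zone, as log2(intensity + 16), with circles for 42 days, triangles for 46 days and a line for the mean of 2 arrays. Both hypertrophic arrays are the lowest for Ndufa4l2, Ndufb7 and Cox4i1, and the 2 ages of a zone differ by up to 3.31 in Ndufa4l2, between its reserve arrays.

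Because Ndufa4l2, Ndufb7 and Cox4i1 carry the widest zone ranges with hypertrophic arrays lowest, the 250 bases before their annotated starts are shown with those of the paralogue Ndufa4, on the gene's strand, from RefSeq tables of build GRCr8. Capitals mark any of 4 motifs searched on both strands: that of the respiratory factor NRF1 (GCGCA and GCGC with any base between), CCGGAAGT, bound by ETS factors such as GABP, and the hypoxia response cores ACGTG and GCGTG. The windows lie at chr7:65241919-65242168 (Ndufa4l2, plus strand), chr4:40975560-40975809 (Ndufa4, minus strand), chr19:41477292-41477541 (Ndufb7, minus strand) and chr19:65630133-65630382 (Cox4i1, plus strand).
Ndufa4l2: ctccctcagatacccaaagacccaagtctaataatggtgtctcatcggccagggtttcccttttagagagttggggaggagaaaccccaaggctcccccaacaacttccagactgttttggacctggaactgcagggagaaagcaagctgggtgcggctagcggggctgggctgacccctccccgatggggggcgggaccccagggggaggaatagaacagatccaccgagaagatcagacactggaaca
Ndufa4: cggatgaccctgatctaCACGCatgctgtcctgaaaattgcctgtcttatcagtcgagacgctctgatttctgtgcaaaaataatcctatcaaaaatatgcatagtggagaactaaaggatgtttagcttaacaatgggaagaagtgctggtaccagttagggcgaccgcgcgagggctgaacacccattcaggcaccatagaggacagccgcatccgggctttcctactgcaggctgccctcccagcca
Ndufb7: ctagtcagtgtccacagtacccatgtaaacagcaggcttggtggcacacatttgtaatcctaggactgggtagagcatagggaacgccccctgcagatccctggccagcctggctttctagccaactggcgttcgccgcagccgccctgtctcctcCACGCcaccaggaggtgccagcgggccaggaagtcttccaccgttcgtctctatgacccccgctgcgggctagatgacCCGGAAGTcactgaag
Cox4i1: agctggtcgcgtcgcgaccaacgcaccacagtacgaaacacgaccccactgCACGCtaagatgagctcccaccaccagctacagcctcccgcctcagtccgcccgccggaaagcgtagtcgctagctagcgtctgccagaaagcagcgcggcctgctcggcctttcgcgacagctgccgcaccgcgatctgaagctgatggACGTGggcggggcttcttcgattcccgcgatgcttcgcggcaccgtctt

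None of the 4 motifs occurs in the Ndufa4l2 window, Ndufa4 holds 1 GCGTG core, Cox4i1 holds 1 of each hypoxia core, and Ndufb7 holds 1 ETS motif and 1 GCGTG core. The 4 motifs do not overlap in these windows. Promoters were found for 72 of the 81 members. The NRF1 motif occurred in 10 of these (13.9%) and in 4.17% of 27457 promoters of all genes, and the ETS motif in 8 (11.1%) and 3.29%. ACGTG occurred in 17 members (23.6%, all promoters 16.9%) and GCGTG in 27 (37.5%, all promoters 27.2%). These are matches of letters, and binding was not measured.

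The other isoforms of complex IV, cytochrome c oxidase, stand beside their common partners. Cox6b1, the common form of subunit 6b at the rim of the enzyme, was at 9.84 and 9.53 in perichondral, 10.79 and 10.47 in reserve, 11.01 and 10.73 in proliferative and 10.10 and 10.26 in hypertrophic arrays. Both perichondral arrays were the lowest, 1.18 below proliferative (SE 0.56, adjusted p = 0.963 with limma). Cox6b2, its testis form, exceeded the background yardstick on no array and was at 8.65 in the 46-day perichondral and 8.70 in the 46-day hypertrophic array against 4.90 to 7.14 elsewhere. Both of these arrays are of 46 days, and their zones differ.

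The muscle isoforms Cox6a2, Cox7a1 and Cox8b were below the yardstick on all 8 arrays. Cox7a1 was at 7.13 and 8.37 in perichondral, 7.43 and 7.81 in proliferative, 6.08 and 7.43 in hypertrophic and 4.75 and 5.67 in reserve arrays, so both reserve arrays were the lowest. Perichondral minus reserve was 2.54 (SE 1.16, adjusted p = 1 with limma). Cox8b was at 7.76 and 8.34 in hypertrophic and between 4.96 and 8.20 in the other arrays, and Cox6a2 had zone means from 7.98 to 8.87 with overlapping arrays. Of 22 skeletal muscle markers, all measured, 1 exceeded the yardstick in its mean, and their summed intensity ran from 40090 to 42910 in perichondral, 30280 to 51670 in reserve, 43620 to 54470 in proliferative and 46900 to 61700 in hypertrophic arrays. The part of muscle RNA in these dim values was not tested.

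The common forms of the remaining complex IV genes mostly overlapped between zones. Cox6a1, the partner of Cox6a2, was highest in both perichondral arrays, at 8.72 and 8.81 against 7.37 to 8.67 elsewhere. Cox8a had zone means from 10.14 to 10.61 and Cox7b, a bright subunit, from 11.28 to 11.92. Cox6c was highest in both reserve arrays, at 11.37 and 11.34 against 10.27 to 11.24 elsewhere, and ranged by 0.98 between zones. Cox7a2l, a factor that joins complexes III and IV into supercomplexes, was steady in reserve arrays (10.87 and 11.03) and split by age in the others.

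Complex V, the ATP synthase, had 7 of its 16 genes above the yardstick on all arrays. Atp5mf and Atp5mk, small membrane subunits, had zone means from 11.66 to 12.13 and from 11.40 to 12.05, and Atp5mc3, a gene of the rotor ring's subunit c, from 10.68 to 11.15. Atp5f1b, the catalytic beta subunit, was at 10.89 and 10.19 in reserve, 10.19 and 10.07 in perichondral, 9.58 and 8.75 in proliferative and 9.44 and 9.83 in hypertrophic arrays. Both proliferative arrays lay below both reserve arrays, a difference of 1.38 (SE 0.62, adjusted p = 0.637 with limma). Atp5f1e, the epsilon subunit, was at 12.47 and 12.34 in perichondral and 11.56 and 10.41 in hypertrophic arrays (difference 1.42, SE 0.62, adjusted p = 0.781, and 0.85 without the 46-day hypertrophic array).

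Further subunits of complex V ran in other directions. Atp5f1d, the delta subunit, was highest in both proliferative arrays (8.85 and 8.12) and lowest in both perichondral arrays (7.45 and 6.22). Atp5me, the subunit e of the dimer interface, was highest in both perichondral arrays, at 8.84 and 9.17 against 5.79 to 7.68 elsewhere, 2.34 above proliferative (SE 1.08, adjusted p = 0.963 with limma), or 1.46 with the 42-day proliferative array left out. Its other probe set gave -0.30 there, so the order depends on the probe. Atp5po, the stalk subunit OSCP, was at 9.98 and 9.13 in reserve and 8.89 and 7.04 in perichondral arrays, and its difference of -1.58 was -0.66 with the 46-day perichondral array left out and turned to 0.26 with the mean of its 2 probe sets. Over the 8 member genes with several probe sets, the probe sets had the same sign in 21 of 48 zone comparisons. Atp5if1, the inhibitor that stops the enzyme from splitting ATP, was at 11.61 and 8.94 in proliferative, 11.01 and 9.31 in hypertrophic and between 10.95 and 11.23 in the other arrays, so it too was low in the 46-day arrays of these zones.

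Between the ages the members divided. The median difference of 46 minus 42 days was -0.12 over members and -0.06 over all genes, with 36 members higher and 45 lower. By zone the perichondral median was -0.14, the reserve median -0.02, the proliferative median -0.26 and the hypertrophic median 0.06. There were 6 members lower at 46 days in all 4 zones (7.41%, all probe sets 7.73%) and 5 higher in all 4 (6.17%, all probe sets 8.58%). The 6 were Atp5f1a, Atp5f1e, Cox4i1, Cox4i2, Cyc1 and Ndufb5, and the 5 were Cox7a1, Cox7b2, Cox8b, Ndufb1 and Ndufs6. With limma 8 members had an unadjusted p under 0.05 (9.88%, all probe sets 8.43%), and none passed the adjusted threshold. All 8 were lower at 46 days. The direction of such probe sets was not counted over the whole array, so it cannot be told whether members differ from it in this.

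The 5 smallest p-values for age belonged to genes of complexes I, III and IV. Ndufb5, a membrane arm subunit of complex I, was at 10.46 and 6.0 in proliferative, 9.36 and 7.42 in hypertrophic, 10.85 and 9.37 in reserve and 9.99 and 9.50 in perichondral arrays at 42 and 46 days. It was lower at 46 days in all 4 zones, by 2.09 on average (SE 0.60, adjusted p = 0.326 with limma), and its fitted difference was -1.31 without the 42-day proliferative array. Cox7a2l was at 11.54 and 9.27 in perichondral, 10.24 and 7.84 in proliferative, 10.86 and 8.81 in hypertrophic and 10.87 and 11.03 in reserve arrays, with a fitted difference of -1.64 (SE 0.47, adjusted p = 0.326). Uqcrh differed by -1.63 (SE 0.53, adjusted p = 0.443, and by -1.02 without the 42-day hypertrophic array), Ndufa9, an accessory subunit near the ubiquinone site, by -2.09 (adjusted p = 0.514; its other probe set gave 0.03) and Ndufb11, of the membrane arm, by -1.89 (adjusted p = 0.52). In reserve arrays Cox7a2l, Uqcrh, Ndufa9 and Ndufb11 were not lower at 46 days.

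**Figure D5:**
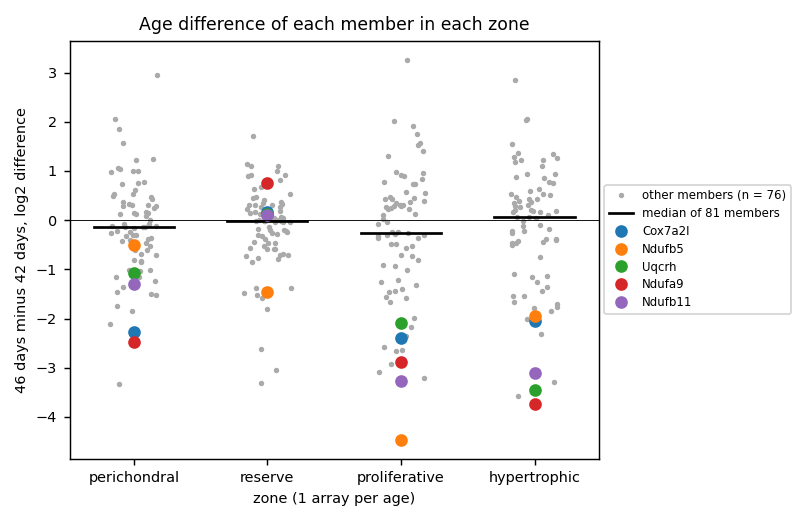
Difference between the 46-day and the 42-day array of each zone for the 81 members on the log2 scale, with 5 genes in colour and a line at the median. The coloured genes lie below 0 in perichondral, proliferative and hypertrophic arrays, while in reserve arrays Ndufb5 alone of them does, at -1.47.

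Among 9 lists of genes that surround the machinery, a single gene was called. Nnt, the transhydrogenase that uses the proton gradient to make NADPH, was at 11.72 and 11.26 in perichondral, 11.12 and 11.34 in reserve, 9.37 and 7.69 in proliferative and 5.21 and 5.35 in hypertrophic arrays. The zones fell into steps without overlap except between perichondral and reserve, and reserve minus hypertrophic was 5.96 (SE 0.74, adjusted p = 0.00665 with limma). Both hypertrophic arrays and the proliferative ones lay below the background yardstick of 9.53, so the sizes of differences against them rest on dim values. The proliferative arrays lay between the others, 3.25 above hypertrophic (adjusted p = 0.565) and 2.96 below perichondral arrays (adjusted p = 0.928). Cycs, which encodes cytochrome c, was not analysed here.

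The other lists of the pathway had no gene past the threshold in any zone comparison or between ages. Of 45 assembly factors of the complexes 40 were measured, with a median of 0.20 for reserve minus hypertrophic. Timmdc1, a complex I assembly factor, had a difference of 2.66 there (SE 0.82, adjusted p = 0.443 with limma). Of 78 mitochondrial ribosomal proteins, which translate the mitochondrially encoded subunits, 74 were measured, with a median of 0.35 and 52 higher, led by Mrps33 (3.62) and Mrpl12 (3.59, adjusted p = 0.352). Of 19 citrate cycle and pyruvate dehydrogenase genes 16 were measured, with a median of 0.95 and 13 higher, among them Suclg2 (2.49) and Pdha1 (1.96, adjusted p = 0.519).

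Glycolysis, the other source of ATP, had 17 of 18 genes measured, with a median of 0.47 for reserve minus hypertrophic and 12 higher, led by the lactate exporter Slc16a3 (2.55, adjusted p = 0.519). The 15 regulators of mitochondrial biogenesis, all measured, had a median of 0.15, led by the mitochondrial transcription factor Tfb2m (2.33, adjusted p = 0.666) and by Tfam (1.60, adjusted p = 0.773), which packages mitochondrial DNA. Of the 6 pyruvate dehydrogenase kinases and phosphatases, all measured, 5 were higher in reserve (median 0.20), led by Pdp1 (2.58). The 10 mitochondrial antioxidant genes had a median of 0.04, led by Gpx1 (2.40), and 12 of 13 mitophagy and hypoxia genes measured one of -0.06, led by Ndrg1 (2.73). The inner membrane carrier list, which holds Nnt, had 19 of 22 genes measured and a median of 0.38. The median of all genes in this comparison was 0.07.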

How the data were processed

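Per the labels, RNA from RNeasy columns was amplified (Ovation) and biotin-labelled. The authors deposited a linear intensity for each of 31099 probe sets. MAS5, GCOS and RMA appear in the submitters' processing notes, with no version or role, and no genome build is given in the sources used here. Scaling each array to 1 trimmed mean, as the deposited values show, leaves unequal medians, so 57 control probe sets were dropped and log2(intensity + 16) was quantile normalized with limma 3.58.1 in R 4.3.3. Differences on this scale understate those of dim genes. Levels of different probe sets are not comparable.

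Genes were named from the platform annotation: 20826 probe sets had 1 symbol, 436 several (not named, 7 of them with a subunit gene) and 9780 none. One member, Cox6c-ps1, is annotated as a pseudogene and may share signal with Cox6c. Zone means were estimated from all 8 arrays together with moderated variances (mean-variance trend; residual degrees of freedom 4, prior 12.58), and age was tested with zone as covariate. The test was checked on simulated data. Alternatives covered the pseudocount, normalization, a filter on low values, an age block, the arrays fitted, the probe sets averaged, the Gapdh ratio and each array left out.

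Members were named by a rule: the 2 highest means and 2 widest zone ranges per complex (ranges only where a zone mean passed the median of all probe sets), the 5 smallest p-values per test, isoform sets, and, of other lists, genes called and at most 2 with the largest difference; members outside it were chosen after their values were seen. Members and lists were chosen with earlier results of these data known.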

Additional observations from a re-analysis of the deposited data

Results flagged for a closer look

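The effects given here had opposite signs at the 2 ages or in different zones. With 1 array per zone and age none of these differences was tested. The median over members for proliferative minus hypertrophic was 0.14 at 42 days and -0.07 at 46 days. The perichondral median of 46 minus 42 days was -0.14, the reserve one -0.02, the proliferative one -0.26 and the hypertrophic one 0.06. Cox7a2l was lower at 46 days in perichondral (-2.28), proliferative (-2.40) and hypertrophic arrays (-2.06) and at 0.17 in reserve. Uqcrh was at -1.07, -2.10 and -3.46 in the same zones and at 0.12 in reserve. Ndufa9 was at -2.48, -2.88 and -3.74, against 0.75 in reserve. Ndufb11 was at -1.29, -3.28 and -3.10, against 0.11 in reserve. These 4 genes were picked for their small p-values for age, and reserve was the zone of opposite sign in each.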

How the results depend on the processing

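With limma, the count of members called was 0 in all 8 tests under every alternative run, and also with each array left out (lowest 0, highest 0). The 35 member differences followed, the 5 with the smallest p-values in each zone comparison and for age, stayed short of the threshold throughout, with a lowest adjusted p of 0.0845 (Cox7a2l for age, median centring). Their signs held in 292 of 294 values from the other alternatives and in all 280 with an array left out; with the probe sets of a gene averaged Atp5po turned to 0.26 (perichondral minus reserve) and Sdhd to -0.16 (perichondral minus hypertrophic). The members' median for age moved to -0.41 with median centring (all genes -0.18). With an array left out the medians ran from 0.09 to 0.38 for reserve minus hypertrophic, 0.05 to 0.41 for reserve minus proliferative, -0.19 to 0.24 for proliferative minus hypertrophic, 0.01 to 0.33 for perichondral minus proliferative, 0.06 to 0.23 for perichondral minus hypertrophic, -0.22 to -0.04 for perichondral minus reserve and -0.24 to -0.15 for age. Values for complex III with arrays left out were added after seeing the data. With age as a replicate block 0 members were called in any zone comparison. The pairing was checked by correlating the 46 minus 42 day difference between zones, with r from 0.0225 to 0.0806 across all probe sets and from -0.0685 to 0.341 across the 81 members. Across all probe sets no pair was over 0.1, and the arrays were treated as sharing only an age. Such correlations of single arrays cannot show whether the zones of an age came from the same rats. The filter on low values kept 65 of 81 members.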
